A study of Drosophila melanogaster with 4 samples.

Results

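The 8 insulator protein genes CTCF, su(Hw), BEAF-32, Cp190, Chro, mod(mdg4), pita and Trl were examined for Dam-Pr-set7 summits in larval neural stem cells of Drosophila melanogaster. They were chosen by name, with earlier results of these data known. The choice was out of 13922 protein-coding genes on the 6 chromosome arms 2L, 2R, 3L, 3R, 4 and X. A summit was counted for a gene when it lay inside the annotated gene span or within 2000 bp of it. CTCF was the 1 gene of the 8 at which both replicates placed a summit at the same position, and that pair was among the highest in the genome. pita and Trl each had a summit in both replicates, but several kilobases apart. mod(mdg4) had a summit in replicate 2 only. su(Hw), BEAF-32, Cp190 and Chro had none in either replicate, as was the case for 60.1% of all protein-coding genes.

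Insulator proteins bind DNA between regulatory domains, keep enhancers from acting across a boundary and help to fold chromatin into domains. In Drosophila, several DNA-binding proteins (CTCF, Su(Hw), BEAF-32, Pita and the GAGA factor encoded by Trl) each recognise their own motif. They recruit or work with shared partners that bridge distant sites, chief among them CP190, Mod(mdg4) and Chromator. Pr-set7, which the fly gene Set8 encodes and which is called SETD8 in mammals, monomethylates a lysine of histone H4.

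Targeted DamID reads out where a protein has been on chromatin. The bacterial methylase Dam, fused to Pr-set7, methylates the adenine of GATC motifs near the sites that the fusion protein visits, and the methylated DNA is amplified and sequenced. The 2 Dam-Pr-set7 samples carried UAS-Dam-Pr-set7 (construct pUASTattB-LT3-NDam-Pr-set7) under grh-Gal4, and the 2 Dam samples carried UAS-Dam under the same driver. All came from larvae 24 h after hatching, from eggs laid over 6 h and kept at 25 °C, with the larvae at 29 °C. The design describes grh-Gal4 as specific to neural stem cells. Each of its 2 batches is taken here to hold 1 sample of each genotype, but the labels do not state which sample belongs to which batch. The Dam samples were not analysed here, so that no summit below is compared with Dam alone. The number of animals per sample is not stated in the labels. Summit positions do not measure expression, and the labelled cell type could not be checked against its markers.

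Replicate 1 had 2876 summits with a median height of 42 fragments (12 to 279), and replicate 2 had 4281 with a median of 37 fragments (11 to 204). The height is the number of overlapping fragments at the summit. It is not scaled to library depth, which is unknown, so each height is also given as a percentile within its own list, where 100 is the highest. Of the 2856 replicate 1 summits on the 6 arms, 1972 (69.0%) had a replicate 2 summit within 500 bp, and the median distance of these pairs was 22 bp. If each batch held 1 Dam-Pr-set7 sample, a difference between the replicates may equally be a difference between batches. With 2 samples of 1 genotype there is no test over samples, and the values below are a description.

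A summit lay inside or within 2000 bp of 3 of the 8 insulator genes in replicate 1 (37.5%), against 28.3% of all protein-coding genes. In replicate 2 it was 4 of 8, against 34.9% of all genes. Both replicates had a summit at 3 of 8, against 23.3% of all genes. A pair of summits within 500 bp of each other was present at 1 of 8 (12.5%), against 21.3% of all genes. Neither replicate had a summit at 4 of 8 (50%), against 60.1% of all genes. Replicate 2 alone had one at 1 of 8 (12.5%), against 11.6% of all genes. With 8 genes each gene moves a share by 12.5%, so these counts stand near the background. The genes were mostly longer than average, since 7 of the 8 exceeded the median coding gene of 2163 bp, and a longer span can hold more summits. In all, 7 summits were counted for the 8 genes, 3 of them inside a gene span. A partner in the other replicate within 500 bp was found for 2 of the 7, both at CTCF. The 7 were 3 summits of replicate 1 and 4 of replicate 2. Of all replicate 1 summits on the arms, 69.0% had such a partner. The share over all replicate 2 summits was not computed. Of the 3841 replicate 2 summits on the arms with 17 fragments or more, 1931 (50.3%) had one.

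**Figure D1:**
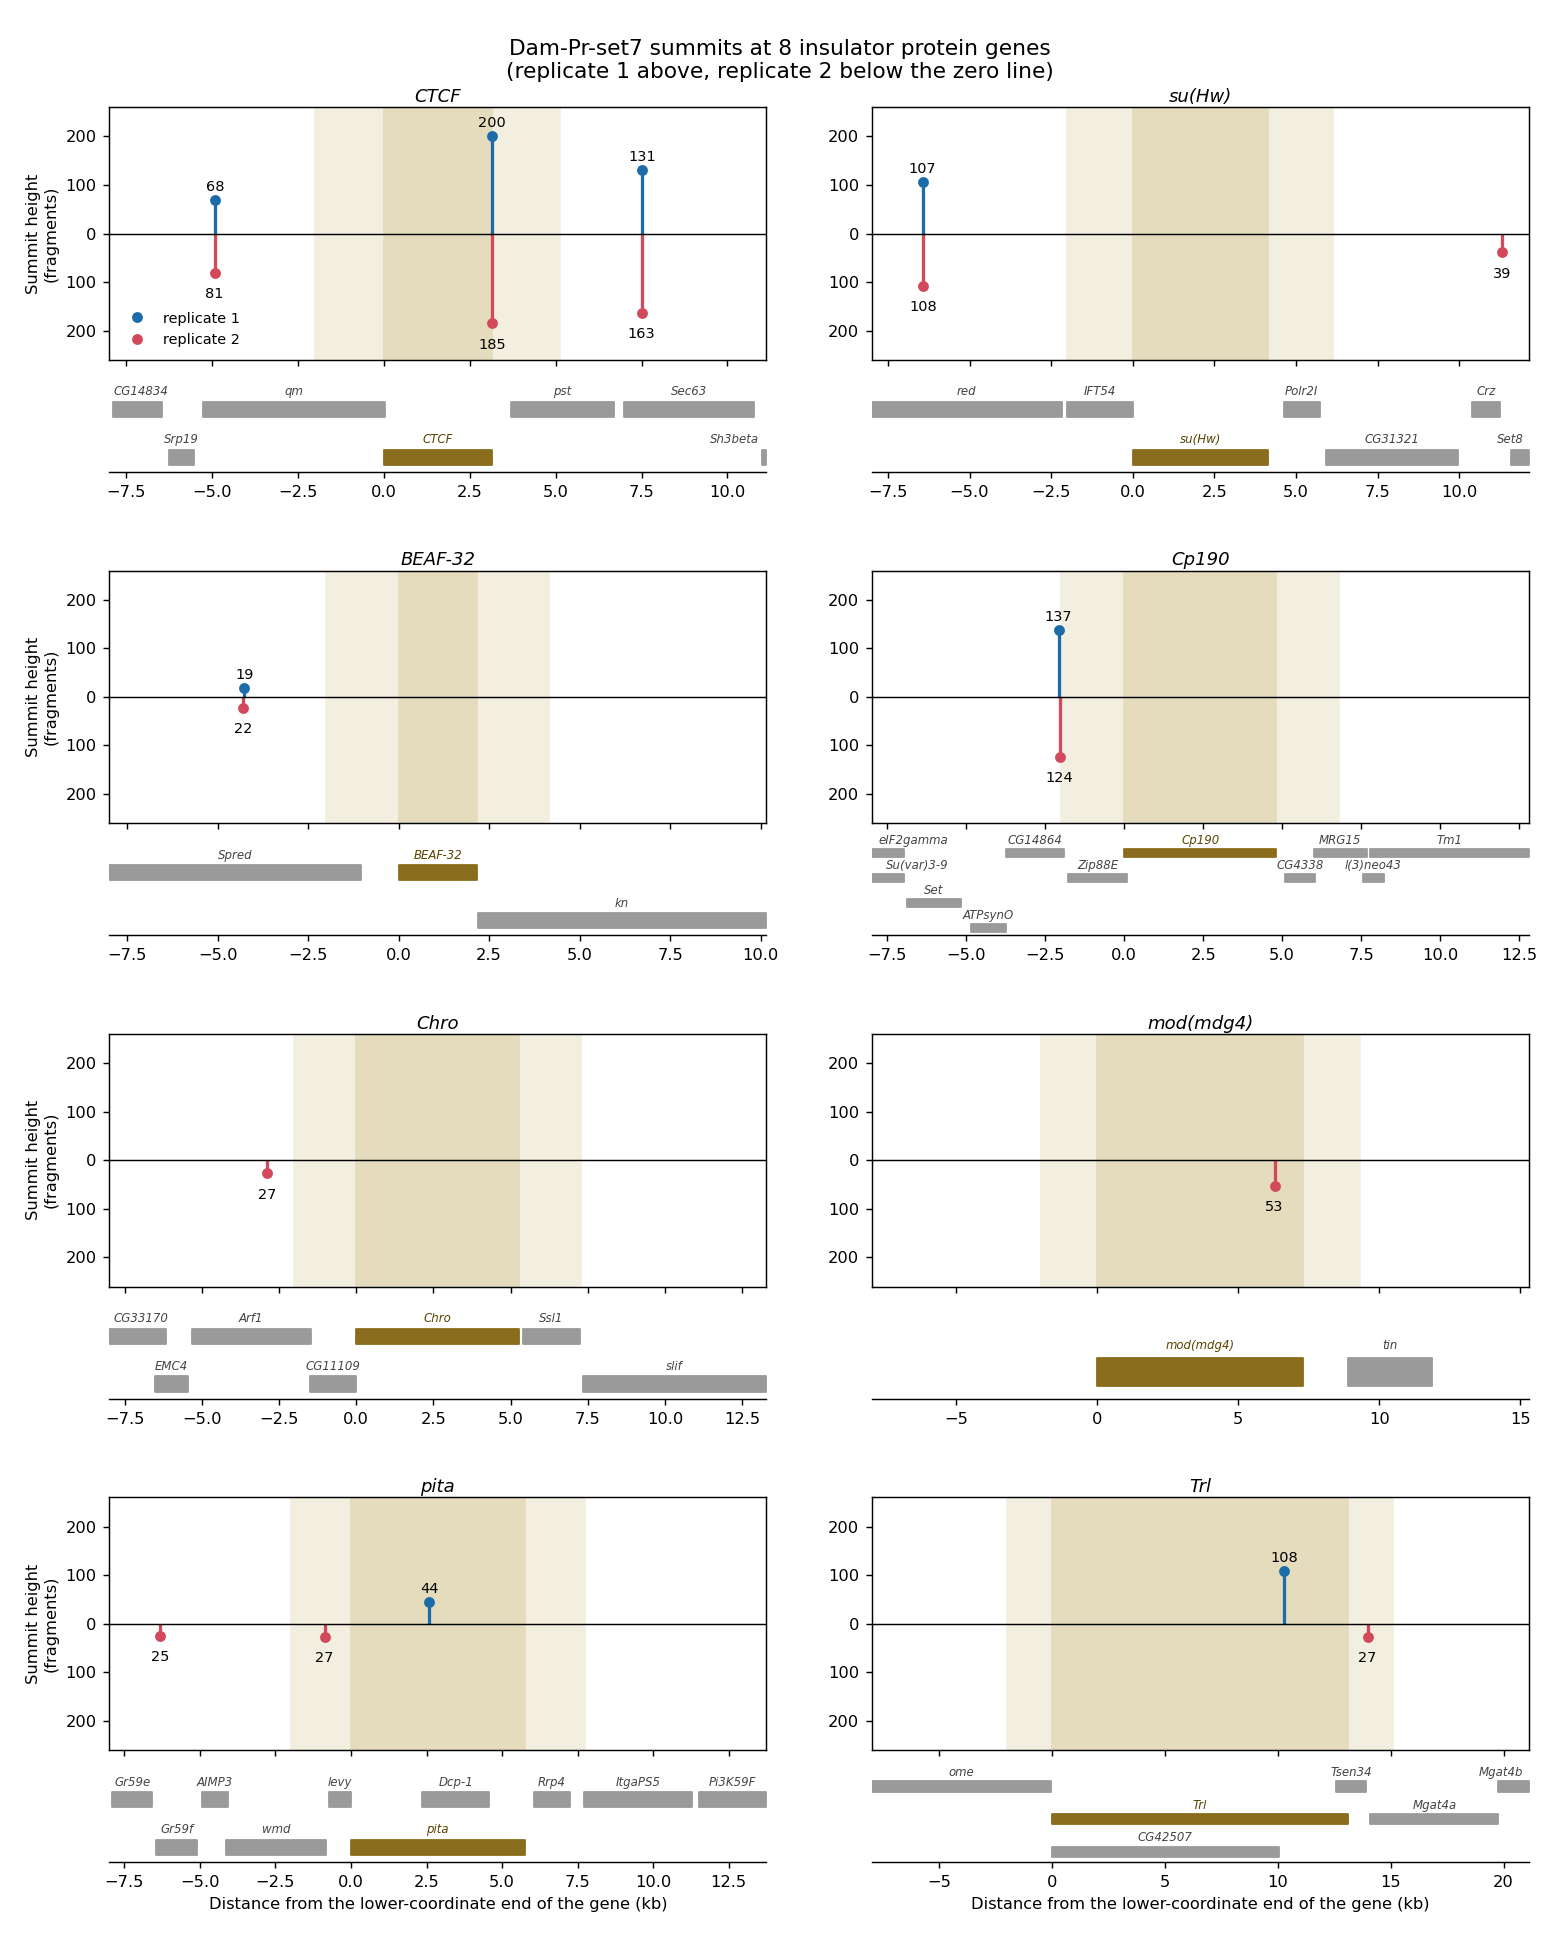
Summits of replicate 1 (blue, upward) and replicate 2 (red, downward) around the 8 genes, with height in fragments against distance in kb from the lower-coordinate end of each gene, drawn to 8 kb beyond the span. Dark shading marks the gene span, light shading the 2000 bp on each side, and bars below mark protein-coding genes; the shared pair at CTCF (200 and 185 fragments) stands at the edge of the gene, while the summits at pita and at Trl do not coincide.

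CTCF encodes the zinc finger protein that is the fly counterpart of the main vertebrate insulator factor. The gene lies on 3L from 7353578 to 7356713 (dm6), a span of 3136 bp. In replicate 1 its summit was at 7356727 with 200 fragments, 14 bp beyond the upper-coordinate end of the gene. In replicate 2 it was at 7356721 with 185 fragments, 8 bp beyond the same end. The replicates therefore placed the summit 6 bp apart, and 17.2% of all pairs within 500 bp were that close or closer. The heights were at percentile 98.1 in replicate 1, where the summit ranked 55th, and 99.3 in replicate 2, where it ranked 32nd. A partner within 500 bp was usual for such heights. It was found for 43 (75.4%) of the 57 replicate 1 summits on the arms at least as high. In replicate 2 it was found for 28 (87.5%) of 32. Of the 1972 pairs in the genome, 29 including this one had a mean percentile of 98.7 or more. Among the 3247 coding genes with a summit in both replicates, CTCF ranked 60th by the mean percentile of the highest summits.

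The CTCF summits lay in the gap of 561 bp between CTCF and pst, the gene of the antiviral factor Pastrel. They were 548 bp from pst in replicate 1 and 554 bp in replicate 2, so CTCF was the nearer gene in each. The summits so close to an annotated gene end were counted, by cutoffs set at the distances of CTCF itself. In replicate 1, 62 summits (2.17%) were no farther than 14 bp from a coding gene's end, and in replicate 2, 45 (1.06%) were no farther than 8 bp. The share expected for windows this narrow was not computed. The GATC sites could not be placed here, so how finely the method resolves such distances is not known. The strand of genes was not used here, so the upper-coordinate end is not called a start or a 3′ end.

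Further pairs flanked CTCF at greater distances. At the lower side, summits inside qm, which encodes a geranylgeranyl diphosphate synthase, were 4923 bp from CTCF in replicate 1 (68 fragments) and 4932 bp in replicate 2 (81 fragments). At the upper side, summits inside Sec63, a gene of the endoplasmic reticulum protein translocation machinery, were 4377 bp away in replicate 1 (131 fragments) and 4369 bp in replicate 2 (163 fragments). These pairs coincided within 9 and 8 bp. Within 8 kb of CTCF there were 3 summits in each replicate, all with a partner. None of the other 7 genes had more than 2 in a replicate over the same distance. Within 50 kb, CTCF had 5 summits in replicate 1 and 6 in replicate 2, a density per 100 kb above that of 82.9% and 75.2% of coding genes.

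Trl encodes the GAGA factor, a DNA-binding BTB domain protein of the trithorax group that keeps promoters accessible. At 13121 bp (3L, 14747929 to 14761049) it has the longest annotated span of the 8 genes. Replicate 1 had a summit of 108 fragments (percentile 87.6) inside it at 14758200, which is 2849 bp from the upper-coordinate end. Replicate 2 had no summit there. Its summit for Trl was at 14761914 with 27 fragments (percentile 33.7), 865 bp beyond the upper end. The 2 positions were 3714 bp apart. The replicate 2 summit was nearer to other genes, 70 bp from Tsen34, which encodes a subunit of the tRNA splicing endonuclease, and 114 bp from Mgat4a. The replicate 1 summit was 238 bp beyond the end of CG42507, which shares 10034 bp with Trl.

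In lacking a partner, the summit inside Trl was in the minority among replicate 1 summits at least as high. Of the 358 replicate 1 summits on the arms with 108 fragments or more, 294 (82.1%) had a replicate 2 summit within 500 bp. Summits were sparse around Trl, with 2 in each replicate within 50 kb. The density was below the median of coding genes in both replicates, at 1.77 per 100 kb in each against medians of 2.69 in replicate 1 and 3.86 in replicate 2.

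pita encodes a zinc finger protein that binds DNA at boundaries, among them those of the bithorax complex, and recruits CP190. It lies on 2R from 23548967 to 23554712. The replicate 1 summit was at 23551564 with 44 fragments (percentile 51.8), inside pita. It was also inside Dcp-1, a gene of an effector caspase that lies within pita (23551313 to 23553547), 251 bp from the end of Dcp-1. The replicate 2 summit was at 23548098 with 27 fragments (percentile 33.7), 869 bp below pita. It was inside wmd, 53 bp from its end, and 141 bp from levy, a gene of a cytochrome c oxidase subunit. The 2 summits were 3466 bp apart and neither was among the high ones. The first thus lies in 2 genes and the second in a neighbouring gene.

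su(Hw), the zinc finger protein of the gypsy insulator, had no summit within 2000 bp (3R, 14304455 to 14308589). The nearest ones lay inside red, 6437 bp away with 107 fragments in replicate 1 and 6430 bp away with 108 fragments in replicate 2, and were 7 bp apart. At percentiles of 87.4 and 90.6 they were high in both lists. On its other side a stretch of 7448 bp separates su(Hw) from Set8, the gene of Pr-set7 itself. Replicate 2 had a summit of 39 fragments between them, 7178 bp from su(Hw) and 271 bp from Set8. It was 51 bp from Crz, the corazonin neuropeptide gene, and replicate 1 had no summit within 17749 bp of it. The transgene in these samples also carries Pr-set7 sequence, and its part in this summit was not tested.

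BEAF-32, whose protein was found at the boundary elements of a heat shock gene locus, had no summit within 2000 bp either (2R, 14770469 to 14772630). The nearest were inside Spred at 4268 bp with 19 fragments in replicate 1 and at 4301 bp with 22 fragments in replicate 2. They were 33 bp apart and low, at percentiles of 9.82 and 22.7. On the other side a gap of 19 bp separates BEAF-32 from kn, the gene of the transcription factor Collier. The next summits on that side were 188483 bp away in replicate 1 and 42767 bp away in replicate 2.

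Cp190 encodes the BTB domain protein that most insulator complexes share. It had no summit within 2000 bp (3R, 15270432 to 15275241), but was the closest of the 8 to that limit from outside. The nearest summits were 2077 bp away with 137 fragments in replicate 1 and 2043 bp away with 124 fragments in replicate 2, at percentiles of 93.3 and 93.7. They were 34 bp apart and lay inside CG14864, 183 and 149 bp from its end, with Zip88E, a gene named as a zinc transporter, between them and most of Cp190. Of the genes inside the limit, pita and Trl were the farthest out, at 869 and 865 bp in replicate 2. The surroundings of Cp190 were rich in summits, with 5 in replicate 1 and 8 in replicate 2 within 50 kb. That density exceeded the one at 81.8% and 89.1% of coding genes.

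mod(mdg4) encodes many protein isoforms that share a BTB domain and are made by trans-splicing, and 1 of them belongs to the gypsy insulator complex. The gene span is 21370101 to 21377401 on 3R. Replicate 2 had a summit at 21376387 inside the gene, with 53 fragments (percentile 67.4) and 1014 bp from the upper-coordinate end. Replicate 1 had none, and its nearest summit was 37970 bp away with 121 fragments, farther than at 85.4% of coding genes. That distant site, inside aus, also had a replicate 2 summit, at 37972 bp with 123 fragments. The gene table lists 23 precursor segments for trans-splicing of mod(mdg4), which widen the locus to 22957 bp. Within 2000 bp of this wider locus the number of summits was again 0 in replicate 1 and 1 in replicate 2. The nearest replicate 1 summit was 22314 bp from the wider locus, farther than at 72.7% of coding genes from their spans. Of the 1404 replicate 2 summits on the arms with 53 fragments or more, 1052 (74.9%) had a replicate 1 summit within 500 bp.

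Chro encodes Chromator, a chromodomain protein of interbands that also joins the spindle matrix in mitosis. It had no summit within 2000 bp (3L, 22873702 to 22878984). In replicate 2 the nearest was inside Arf1, a gene of a small GTPase of Golgi traffic, 2886 bp away with 27 fragments (percentile 33.7). In replicate 1 the nearest was 21456 bp away with 36 fragments (percentile 42.1), farther than at 71.7% of coding genes. No pair of the replicates was found within 8 kb of Chro.

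**Figure D2:**
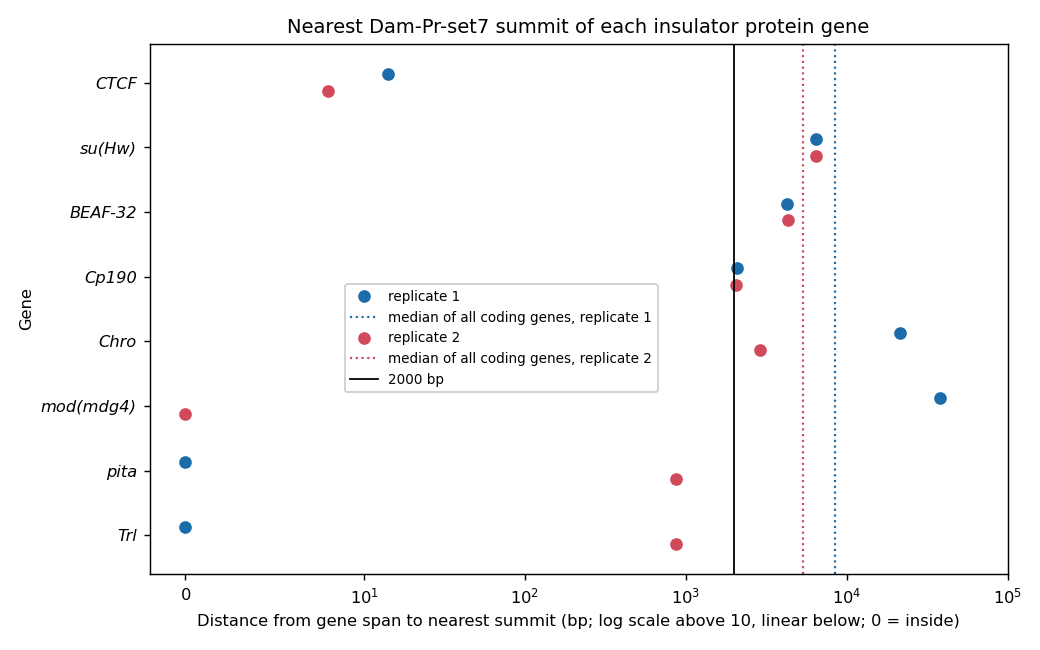
Distance in bp from each gene span to the nearest summit of replicate 1 (blue) and replicate 2 (red), on an axis that is logarithmic above 10 bp and linear below, where 0 means inside the gene. The line marks 2000 bp. The dotted lines mark the medians of all coding genes (8402.5 bp in replicate 1 and 5332.5 bp in replicate 2). CTCF is close in both replicates, at 14 and 8 bp. pita and Trl in replicate 1 and mod(mdg4) in replicate 2 are nearer, at 0. su(Hw), BEAF-32 and Cp190 have nearly equal distances in both replicates.

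In replicate 1 the median distance from an insulator gene to its nearest summit was 3172.5 bp, against 8402.5 bp over all coding genes. In replicate 2 it was 1456 bp, against 5332.5 bp. Chro and mod(mdg4) were beyond the all-gene median in replicate 1, and su(Hw) in replicate 2. Distances were taken from the gene span, which a longer gene makes smaller, and 7 of the 8 genes were longer than the median coding gene. The median summit density within 50 kb was 2.41 per 100 kb for the 8 genes in replicate 1, against 2.69 for all coding genes. In replicate 2 the density was 4.79 against 3.86, so the replicates differed in direction. At 4 of the 8 genes (CTCF, su(Hw), BEAF-32 and Cp190) the nearest summit of one replicate was no more than 500 bp from that of the other, whatever their distance from the gene, against 42.6% of all coding genes. Among the 4 insulator genes without a summit within 2000 bp, this held for 3 (su(Hw), BEAF-32 and Cp190). The same was true of 3306 (39.5%) of the 8371 coding genes without one. At these 3 genes the replicates shared a summit that lay inside a neighbouring gene (red, Spred and CG14864).

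CTCF differed from pita and Trl in the distance between the replicates. Of the 3247 coding genes with a summit in both replicates, 2962 (91.2%) had a pair within 500 bp, and the median of the smallest distance was 22 bp. CTCF, at 6 bp, lay on the near side of that median, and Trl and pita, at 3714 and 3466 bp, were among the 285 genes (8.78%) without such a pair.

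**Figure D3:**
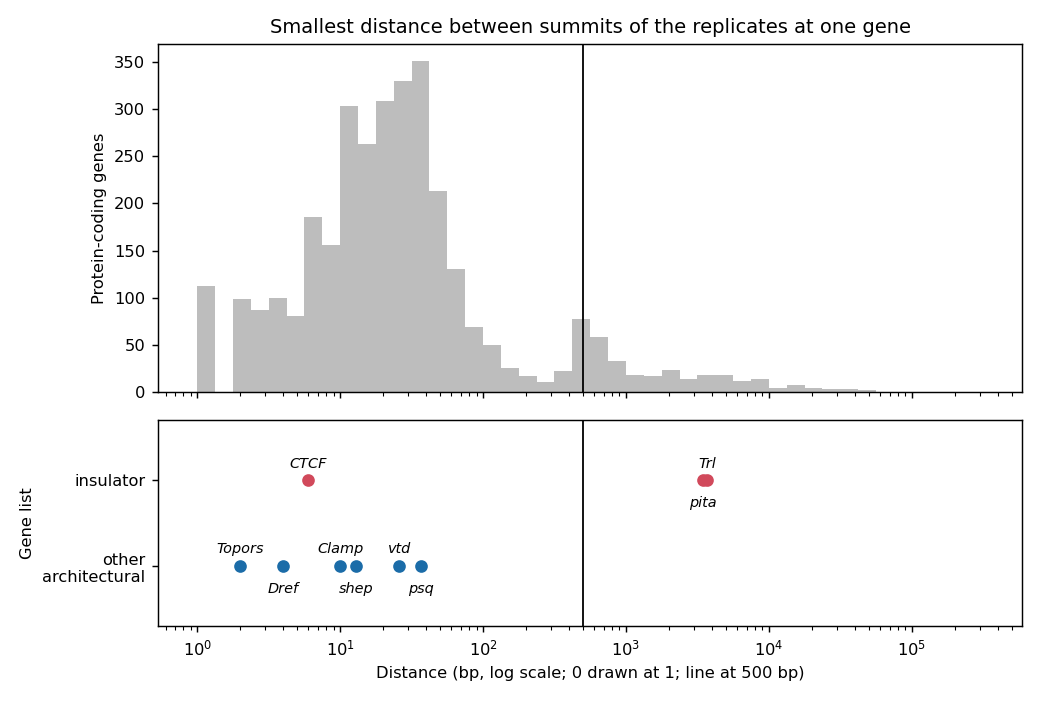
Histogram of the smallest distance in bp (log scale, 0 drawn at 1) between a summit of replicate 1 and one of replicate 2 at the same gene, over the 3247 coding genes with a summit in both, and below it the insulator genes (red) and other architectural genes (blue). The line marks 500 bp; CTCF (6 bp) and the 6 other architectural genes (2 to 37 bp) fall on its left, pita (3466 bp) and Trl (3714 bp) on its right.

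A second list of 28 genes held further insulator proteins, partners of the 8 and subunits of cohesin and condensin. Both replicates had a summit within 2000 bp at 6 of them (21.4%), against 23.3% of all coding genes. At all 6 the replicates had a pair within 500 bp, so the share with such a pair was also 21.4%, against 21.3% of all genes. Gene length was not accounted for here either. Of the 6, shep, psq and vtd were longer than 99.6%, 98.3% and 93.2% of coding genes. Topors, Clamp and Dref were longer than 73.4%, 65.7% and 62.7%. Nipped-B, longer than 96.4%, had no summit. Neither replicate had a summit at 17 of the 28 (60.7%), against 60.1% of all coding genes. Among these 17 were the boundary factors ZIPIC, M1BP and the 3 Elba genes, the cohesin subunits SMC1 and SMC3, and pzg and JIL-1, whose proteins act with Chromator.

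The highest of the 6 was Clamp, whose protein binds GA-rich DNA and directs dosage compensation to the X chromosome. Its summits on 2L were at 22169836 (107 fragments) in replicate 1 and at 22169826 (83 fragments) in replicate 2, which is 693 and 683 bp beyond the upper-coordinate end. Replicate 1 had a further summit of 55 fragments there, 1492 bp from the gene. shep, an RNA-binding protein gene that counteracts the gypsy insulator in neurons, had a pair inside the gene at 5185000 (65 fragments) and 5184987 (57 fragments) on 3L. It had 1 further summit in replicate 1 and 2 in replicate 2, of which that at 5169928 in replicate 2 reached 97 fragments without a replicate 1 partner. vtd, which encodes the cohesin subunit Rad21, had 55 fragments in replicate 1 and 58 in replicate 2, 519 and 545 bp below the gene and 26 bp apart.

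Topors, a ubiquitin ligase gene whose protein is a partner of the gypsy insulator complex, had 40 fragments in replicate 1 and 54 in replicate 2 at positions 2 bp apart inside the gene, 390 and 392 bp from the lower end. psq, whose BTB domain protein Pipsqueak binds GA-rich sites as the GAGA factor does, had 36 fragments in each replicate at positions 37 bp apart, 1028 and 1065 bp below the gene. It also had 1 summit of 17 fragments inside the gene in each replicate, and these were 15450 bp apart. Dref, a factor whose motif overlaps with that of BEAF-32, had 27 fragments in replicate 1 and 47 in replicate 2, 4 bp apart. That pair lay inside CG5850, 884 and 880 bp from Dref.

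Other genes of the second list had a summit in 1 replicate only. Ibf1 and Ibf2, neighbouring genes of insulator binding factors that recruit CP190, shared 1 replicate 2 summit of 152 fragments (percentile 96.6) inside Ibf1. The nearest replicate 1 summit was 4300 bp from it, while 135 (90.6%) of the 149 replicate 2 summits on the arms of that height or more had a partner within 500 bp. Cap-H2, a condensin subunit gene, had a replicate 1 summit of 130 fragments (percentile 92.2), 193 bp below the gene and 85 bp from MED7, without a replicate 2 summit within 14450 bp. dwg, the gene of the insulator protein Zw5, had 2 summits in replicate 2, with 37 and 18 fragments. The cohesin gene SA had 1 in replicate 1 with 38 fragments, which lay inside Gas41.

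**Figure D4:**
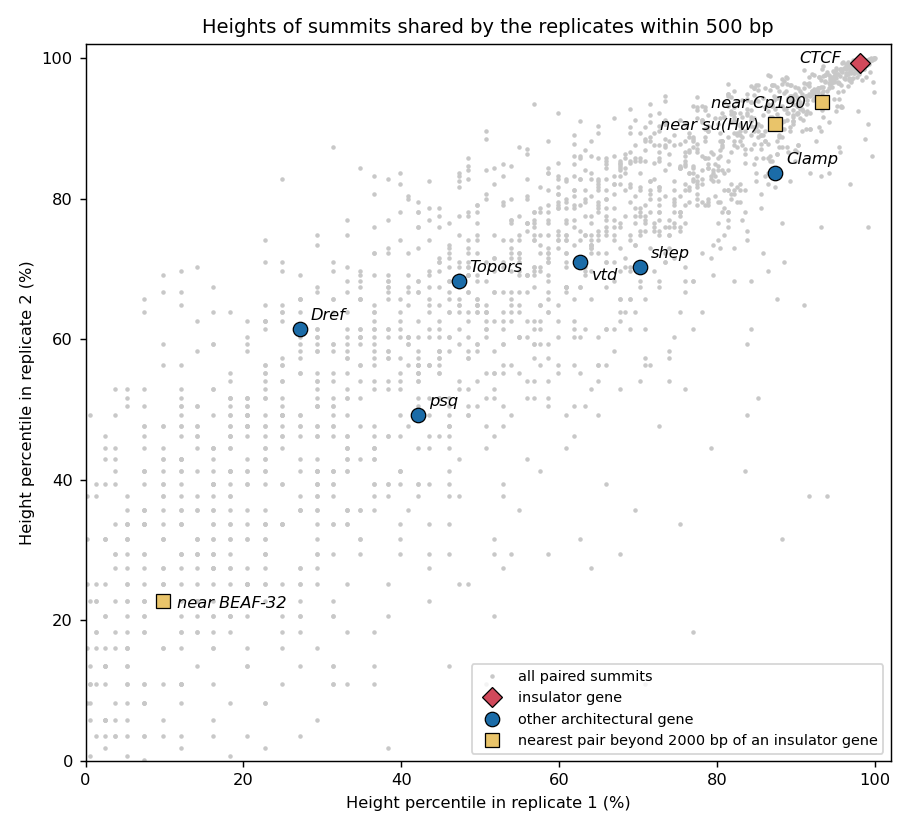
Height percentile in replicate 2 against that in replicate 1, in percent, for the 1972 pairs of summits within 500 bp (grey), with the CTCF pair (diamond), the pairs of the 6 other architectural genes (circles) and the nearest pairs of su(Hw), BEAF-32 and Cp190, which lie beyond 2000 bp (squares). CTCF is at 98.1 and 99.3, above Clamp at 87.4 and 83.7, and the pair nearest to BEAF-32 is among the lowest at 9.82 and 22.7.

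By height, CTCF stood above the others of both lists. Among the 3247 coding genes with a summit in both replicates, Clamp ranked 811th, shep 1151st, vtd 1648th and Trl 1929th by the mean percentile of their highest summits. Topors ranked 2042nd, psq 2448th, Dref 2484th and pita 2528th. The place of Trl rests on its replicate 1 summit, at percentile 87.6 against 33.7 in replicate 2. That of shep takes in its replicate 2 summit without a partner, at percentile 87.6, whereas its shared pair was at 70.2 and 70.3. Over the 7 summits of the insulator genes, 5 were above the median height of their list.

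Of the 8 insulator genes, 6 share bases with another coding gene, by 1 bp (Chro with CG11109) to 10034 bp (Trl with CG42507). mod(mdg4) and BEAF-32 overlap none, and mod(mdg4) is 20499 bp from aus and 1575 bp from tin. For 5 of the 7 summits the insulator gene was the nearest coding gene or tied for it, and for the other 2, the replicate 2 summits of pita and Trl, another gene was nearer. A gene without a summit had none called at this depth, which does not show that Dam-Pr-set7 was absent from it.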

How the data were processed

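The submitters' processing notes name genome build dm6 and the tools MACS 1.4.2, Bowtie2 2.2.6 and bcl2fastq 2.19.0.316. The use of a Dam control in peak calling and the cutoffs are not stated there. The authors deposited positions of summits, 1 bp wide, each with a signal, the pileup height in fragments that the authors' peak caller gave, not scaled to depth. Each of the 2 Dam-Pr-set7 samples has its own list, so peaks were called per sample. The labels give no replicate numbers, so numbers 1 and 2 follow the order of deposit. Whether they came from separate cultures of animals is not stated.

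Gene spans came from a RefSeq table of the Release 6 plus ISO1 MT assembly, which is dm6, without strand, exons or sequence. All 8 genes and 27 of 28 further genes matched by symbol, and SA matched by synonym. Percentiles were ranks within all summits of a file, with ties averaged. The members and lists were chosen with earlier results of these data known. All 8 genes were to be named whatever their values, with up to 6 genes of the second list that had the highest mean percentile; genes with a summit in 1 replicate, and those named for having none, were picked once their values were known. Alternatives included other windows, pairing distances, height and nearest-gene rules and each replicate left out. Counting was tested on simulated summits. Python 3.11.15 with numpy 2.4.6, pandas 2.3.3 and matplotlib 3.10.9 was used.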

Additional observations from a re-analysis of the deposited data

How the results depend on the processing

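Insulator genes with a summit in both replicates numbered 3 within 2000 bp of the span. The count was 0 with summits inside the span only, 1 (CTCF) within 500 bp, within 1000 bp of either end, above the median height or by nearest gene, and 5 within 5000 bp, where BEAF-32 and Cp190 joined. It was 3 within 1000 bp, and 3 to 4 with either replicate left out. Of the 28 further genes, 6 had such summits, but 3 inside the span, within 500 bp or above the median height, and 15 within 5000 bp; with a replicate left out they numbered 8 to 9. The share of all coding genes was 23.3%, against 9.85% inside the span, 14.8% within 500 bp, 18.2% within 1000 bp, 34.2% within 5000 bp, 14.3% within 1000 bp of either end, 14.0% above the median height and 12.5% by nearest gene, and 28.3 to 34.9% with a replicate left out. CTCF was the 1 gene with a pair at pairing distances of 200, 500, 1000 and 2000 bp, above the median height and within 1000 bp. These pairing distances could add neither pita nor Trl, whose summits were 3466 and 3714 bp apart. Windows wider than 2000 bp were not tried for pairs. Within 5000 bp, BEAF-32 and Cp190 would also have a pair, 33 and 34 bp apart, so the result depends on the window. The median percentile of the highest summits was 67.4, and 50.6 to 87.6 with a replicate left out. Depth is unknown and limits which low summits were called.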
